A study of Mus musculus with 60 samples.

Results

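The hippocampus of mice 4 wk after injection of melanoma cells that cause cachexia (CAC) was compared with that of mice given a mock injection (Con). In cachexia a tumour makes the body waste, at the cost of muscle and fat. The libraries were chosen by their labels alone, 5 CAC and 5 Con, 10 of the 60 RNA-seq libraries of the series. Per the labels, all mice were female and 2 months old. A group of 5 libraries injected with melanoma cells that do not cause cachexia (NCAC), and CAC and Con libraries taken at 2, 6 and 8 wk, were used for context. The strain shared by all groups is unclear, being C57BL6/J in the labels of the samples but NCI Ath/nude in the design text. The labels give neither the name of the melanoma lines nor body weight, so no measure of wasting was used. They call the libraries biological replicates without saying that each comes from another mouse. The p-values thus cover only the spread among libraries, taken within groups over all 60, which may be technical.

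The hippocampus lies beside the ventricles, whose choroid plexus secretes cerebrospinal fluid, and below other forebrain regions, so a dissection can take along neighbouring tissue. It carries dense receptors for stress hormones, and its vessels, glia and neurons meet hormones and cytokines from the blood. Ribosomal protein genes and nuclear genes of the respiratory chain are expressed in every cell, and ribosomal protein genes share a run of pyrimidine bases at the transcription start through which growth signals set translation. Endothelial cells respond to the growth factor VEGF through the receptor Kdr, and they release the peptide apelin.

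Depth was alike in the 10 libraries, at 35250868 to 36716938 reads, and mitochondrially encoded RNA took 19.4% to 26.5% of TPM in CAC and 21.0% to 24.7% in Con. Marker lists for CA1 pyramidal neurons had library means of 5.29 to 5.97 in CAC and 5.31 to 5.91 in Con on the log2(TPM + 0.5) scale, in which TPM is a length-scaled abundance. The matching ranges were 4.91 to 5.39 and 4.95 to 5.05 for CA2 and CA3 neurons, and 4.24 to 5.4 and 4.22 to 4.59 for dentate granule neurons, so the labelled tissue was present in every library. The 8 melanocyte markers summed to 6.21 to 9.57 TPM in CAC and 7.17 to 10.4 TPM in Con. Of these, 4 were tested and 0 passed. Mlana, a pigment cell antigen, was too low to be tested, at 0 to 0.819 TPM in CAC and 0 to 0.159 TPM in Con.

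Neighbouring tissue differed between the libraries, and between the groups for the choroid plexus. Ttr encodes transthyretin, the main secreted protein of choroid plexus epithelium. It had 288, 223, 167, 1554 and 189 TPM in CAC replicates 1 to 5, against 2450, 3644, 3279, 3977 and 4847 TPM in Con. Every CAC library lay below every Con library, and CAC replicate 4 lay far above the other 4. The folate receptor gene Folr1 had 2.05, 3.15, 1.20, 17.0 and 1.96 TPM in CAC, against 12.3, 17.6, 16.2, 19.9 and 26.0 TPM in Con, and here CAC replicate 4 lay inside the Con range. Kl, the ageing gene klotho, had 7.40 to 16.5 TPM in CAC and 24.3 to 38.7 TPM in Con, with no overlap. Over the 14 choroid plexus genes the summed level was 199 to 1711 TPM in CAC and 2630 to 5155 TPM in Con. The median difference was -2.30 on the log2 scale. All 14 genes were lower in CAC at an unadjusted p under 0.05, against 9.07% of all tested genes, and 0 passed after adjustment. In the fit of the 10 libraries alone 7 of the 14 passed, among them Ttr and Kl. In such bulk samples, fewer cells of a type and less RNA per cell cannot be told apart. In NCAC libraries Ttr had 132, 8771, 6361, 205 and 1445 TPM, which spans both of the other groups.

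Striatal genes marked single libraries and not a group. The dopamine receptor gene Drd1 had 70.8, 3.34, 3.50, 17.2 and 7.13 TPM in CAC, against 5.06, 77.4, 4.15, 4.49 and 5.18 TPM in Con. Drd2 had 69.6, 2.73, 3.82, 12.1 and 3.62 TPM in CAC, against 3.30, 83.1, 4.21, 3.8 and 2.38 TPM in Con. The adenosine receptor gene Adora2a had 116, 1.39, 2.03, 10.5 and 2.53 TPM in CAC, against 1.58, 123, 2.11, 3.8 and 2.01 TPM in Con. CAC replicate 1 and Con replicate 2 thus carried the highest striatal levels at 4 wk, and CAC replicate 4 the next. CAC replicate 4 was also low in haemoglobin and microglial RNA: its erythroid list mean was 2.59 on the log2 scale, against 6.20 to 7.94 in the other 4 CAC libraries and 5.19 to 6.34 in Con. Its homeostatic microglia list mean was 3.81, against 4.53 to 5.02 in the other 4 CAC libraries and 4.80 to 5.04 in Con.

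**Figure D1:**
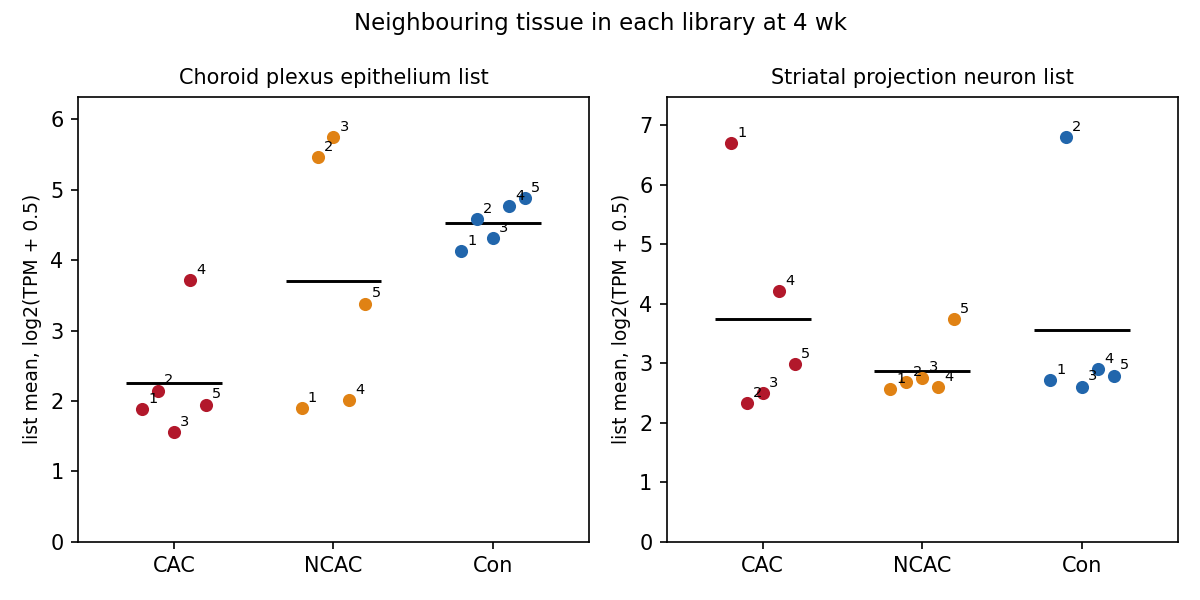
Mean log2(TPM + 0.5) of 14 choroid plexus genes (left) and 11 striatal genes (right) in each library at 4 wk; points are libraries numbered by replicate and bars are group means (n = 5 each). Choroid plexus means were 1.56 to 3.71 in CAC and 4.13 to 4.88 in Con, and the striatal means of CAC replicate 1 and Con replicate 2 were 6.70 and 6.80.

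Some ribosomal protein genes that rose in CAC, and the noncoding gene Snhg12, hold the pyrimidine run at the transcription start. The run sought was a C followed by 5 or more bases that are each C or T, on the gene's strand and beginning within 10 bases of the annotated start. The 4 sequences below, from RefSeq on GRCm38.p6, show it in genes described next, from 40 bases before to 20 bases after the start, with the run in capitals. Rpl14 and Rpl35a encode large-subunit proteins and Rps24 a small-subunit protein, and Snhg12 is a noncoding host gene of small nucleolar RNAs. They lie at chr9:120571477-120571536, chr16:33056442-33056501, chr14:24490638-24490697 and chr4:132308638-132308697, all on the plus strand.
Rpl14: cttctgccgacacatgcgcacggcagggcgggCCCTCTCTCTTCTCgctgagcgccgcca
Rpl35a: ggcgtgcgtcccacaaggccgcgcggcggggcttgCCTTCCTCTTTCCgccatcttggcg
Rps24: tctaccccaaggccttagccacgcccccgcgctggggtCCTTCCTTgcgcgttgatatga
Snhg12: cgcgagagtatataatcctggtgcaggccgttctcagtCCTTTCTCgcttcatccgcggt
The run was found in 12 of the 27 listed ribosomal protein genes that had a promoter entry (44.4%) and in 2729 of 11468 tested genes with an entry (23.8%). Among genes that rose in CAC it was found in 16 of 56 (28.6%), and among those that fell in 11 of 38 (28.9%). A match describes these letters and is not a site.

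Between CAC and Con, 125 of 15608 tested genes passed an adjusted p of 0.05 (0.801%). Of these, 76 rose in CAC (0.487%) and 49 fell (0.314%), with adjusted p from 0.0109 to 0.0482. The changes were small: the median size was 0.40 on the log2 scale, 99 of the 125 were under 1.5-fold and 5 were over 2-fold. In 61 of the 76 that rose every CAC library lay above every Con library, as did 2.01% of all tested genes, and in 27 of the 49 that fell every CAC library lay below, as did 1.76%. At an unadjusted p under 0.05, 8.8% of tested genes were higher and 9.07% lower in CAC. The count rested on single libraries: without CAC replicate 2 it was 1, without CAC replicate 4 it was 0, and without CAC replicate 5 it was 590. It was 4, 0 and 8 without Con replicates 1, 4 and 5, and 216 without CAC replicate 1. It was also 0 without the striatum-rich libraries (CAC replicates 1 and 4 and Con replicate 2), which leaves 3 CAC and 4 Con libraries, and 37 with the choroid plexus list mean as a covariate. All 125 genes kept their direction in the 10 fits without a library. They also kept it in the other alternatives in which they were tested, 13 for 121 genes and 12 for 4. They were picked for a small p in these libraries, so the kept direction follows largely from that choice. Since the count was 0 without CAC replicate 4 or Con replicate 4, none could pass in all 10 fits without a library.

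Ribosomal protein genes were higher as a group in CAC. Of the 37 tested genes of this list, 4 rose after adjustment (0 fell), against 0.487% of all tested genes. At an unadjusted p under 0.05, 30 were higher, against 8.8% of all tested genes. A positive difference was found in 36. The median was 0.28 on the log2 scale, against -0.00472 over all tested genes. Rpl14 had 421, 544, 527, 612 and 483 TPM in CAC, against 374, 327, 417, 346 and 390 TPM in Con, a difference of 0.47 ± 0.09 (SE, adjusted p = 0.0109). All CAC libraries were above all Con libraries, and Rpl14 passed in 7 of the 10 fits without a library. Rpl5, whose protein joins the 5S ribosomal RNA, had 206, 213, 216, 210 and 209 TPM in CAC and 179, 190, 187, 181 and 189 TPM in Con, a difference of 0.19 ± 0.04 (adjusted p = 0.0243). Its partner Rpl11 had 179, 169, 184, 189 and 164 TPM in CAC and 131, 152, 151, 121 and 142 TPM in Con (0.35 ± 0.09, adjusted p = 0.0433). For Rpl5 and Rpl11 the groups did not overlap either. Rps14, of the small subunit, had 370 to 416 TPM in CAC and 252 to 306 TPM in Con (0.43 ± 0.09, adjusted p = 0.0247).

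Outside the list of 37, 65 further genes with an Rpl or Rps name and number were tested, of which 6 rose and 0 fell. Among all tested genes 0.487% rose and 0.314% fell. Rps24 had 546, 582, 560, 576 and 476 TPM in CAC, against 365, 413, 405, 308 and 354 TPM in Con (0.57 ± 0.13, adjusted p = 0.0335). Rpl35a had 43.0, 49.1, 45.3, 49.3 and 39.1 TPM in CAC, against 31.1, 36.9, 34.3, 26.3 and 30.3 TPM in Con (0.51 ± 0.13, adjusted p = 0.0419). Neither gene's groups overlapped. Levels of ribosomal protein genes are uncertain where reads could be shared with their many processed pseudogenes.

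Beside these short transcripts, the libraries differed in how level depends on length. For each library, the deviation of log2 level from the gene's mean over all 60 libraries was fitted on gene length. Its slope was -0.0123 to 0.0439 per doubling of length in CAC and 0.0227 to 0.0951 in Con, ranges that overlap. A lower slope goes with relatively higher values of short genes. With trends on length and GC content removed, the median of the ribosomal protein list was 0.23. Over the fits without a library it was 0.24 to 0.34. Library means of the list were 7.86 to 8.08 in CAC and 7.42 to 7.78 in Con.

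Among noncoding genes, Gas5, Snhg12 and Malat1 rose, named by their rank and not as members of a list. Gas5, whose introns hold small nucleolar RNAs and whose transcript is known in human cells to bind the glucocorticoid receptor, had 72.6, 90.9, 73.8, 71.4 and 63.7 TPM in CAC. In Con it had 41.6, 54.8, 63.3, 40.2 and 50.4 TPM, all below CAC, and the difference was 0.58 ± 0.13 (adjusted p = 0.0347). Snhg12 had 23.7, 30.1, 32.7, 39.4 and 23.0 TPM in CAC, against 19.6, 20.3, 22.5, 14.9 and 18.3 TPM in Con (0.61 ± 0.14, adjusted p = 0.0373). Malat1 is an abundant nuclear noncoding RNA. It had 578, 546, 446, 485 and 359 TPM in CAC, against 322, 329, 302, 272 and 312 TPM in Con, with no overlap (0.63 ± 0.15, adjusted p = 0.0419). CAC replicate 5 was the lowest CAC library for each of these 3 genes.

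Nuclear-encoded genes of the respiratory chain were also higher, and those encoded by mitochondria did not pass. Of 34 tested nuclear genes of oxidative phosphorylation 2 rose (0 fell), 18 were higher and 1 lower at an unadjusted p under 0.05, and the median difference was 0.26 on the log2 scale. It was 0.18 with length and GC trends removed. Among all tested genes 0.487% rose, and at the unadjusted p 8.8% were higher and 9.07% lower. Cox4i1, a subunit of cytochrome c oxidase, had 654, 657, 707, 762 and 709 TPM in CAC, against 525, 574, 569, 524 and 554 TPM in Con (0.34 ± 0.07, adjusted p = 0.0243). Ndufb9, a subunit of complex I, had 467, 466, 497, 521 and 432 TPM in CAC, against 349, 374, 405, 319 and 341 TPM in Con (0.42 ± 0.11, adjusted p = 0.0442). Groups did not overlap for either gene. Ndufb4, another complex I subunit outside that list, had 88.0, 89.6, 102, 96.3 and 70.9 TPM in CAC and 52.7, 59.0, 68.7, 46.3 and 57.4 TPM in Con (0.65 ± 0.16, adjusted p = 0.0427). Timm8b, a small chaperone of mitochondrial import, had 203 to 259 TPM in CAC and 150 to 192 TPM in Con (0.50 ± 0.13, adjusted p = 0.0482). Of the 13 mitochondrially encoded genes 0 passed, and their median was -0.07.

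**Figure D2:**
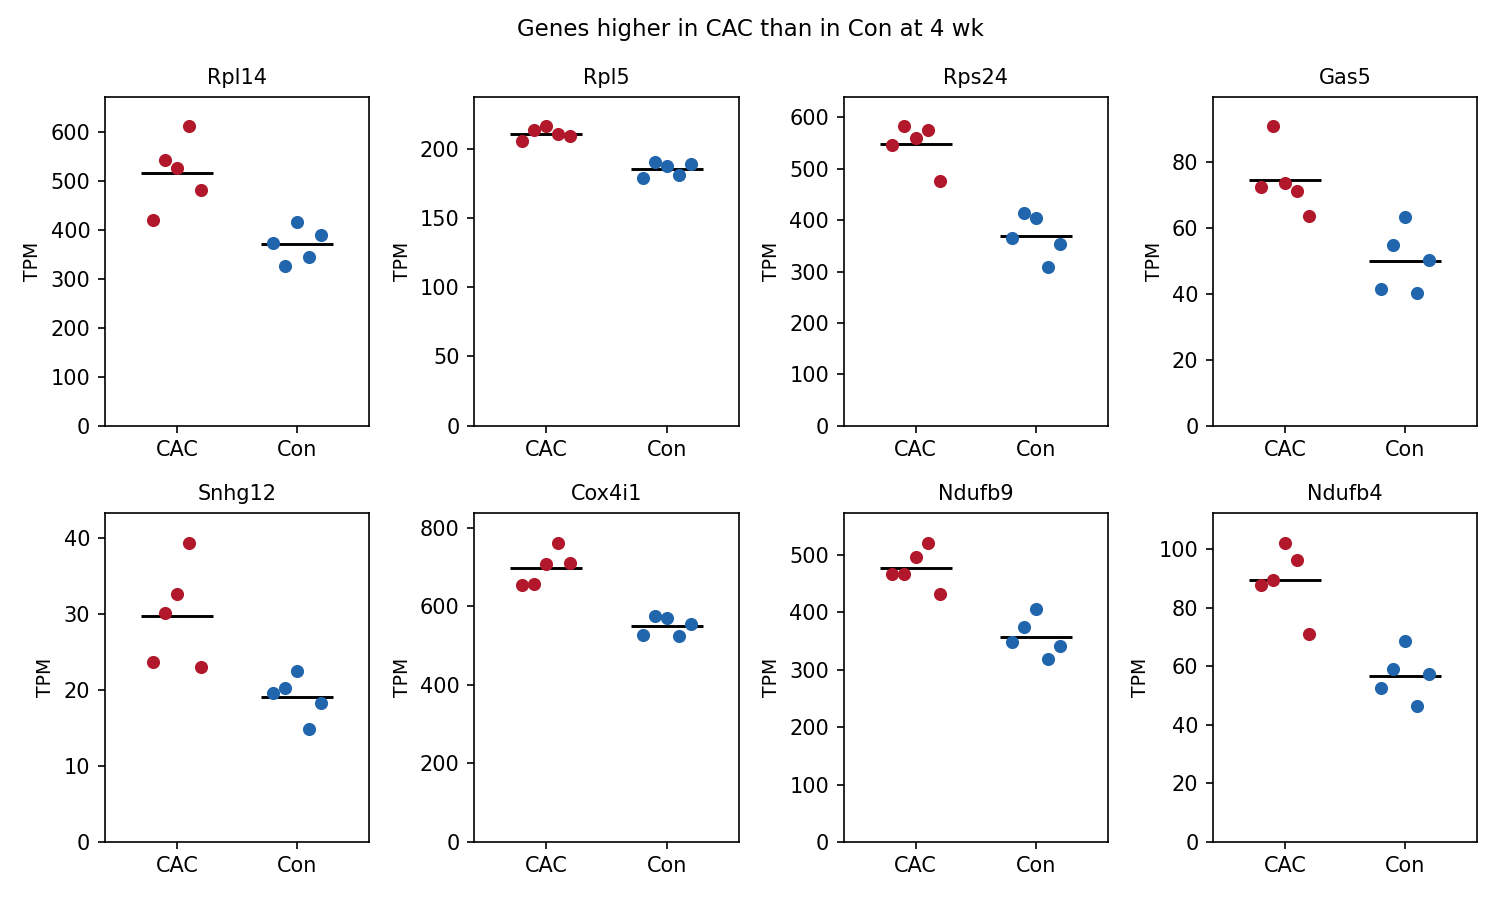
TPM of 8 genes that rose in CAC; points are libraries, replicates 1 to 5 from left to right, bars are group means (n = 5 each), and the axes start at 0. In all 8 panels the CAC points lie above the Con points, as for Rpl5 with 206 to 216 TPM in CAC and 179 to 190 TPM in Con.

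Among genes that rose, 11 had predicted or clone names and were left out of the ranking by size. Of the rest with a mean of at least 1 TPM in CAC, the 10 with the largest differences were led by Spaca6. This gene, known for sperm-egg fusion, had 6.10, 8.33, 7.46, 12.5 and 5.43 TPM in CAC. In Con it had 4.08, 4.20, 5.46, 3.22 and 2.86 TPM, so the lowest CAC library lay just below the highest Con library, and the difference was 0.90 ± 0.22 (adjusted p = 0.0423). Pin4, a peptidyl-prolyl isomerase, had 41.2, 46.2, 46.7, 44.4 and 33.5 TPM in CAC, against 19.4, 23.8, 35.5, 22.0 and 24.2 TPM in Con (0.77 ± 0.19, adjusted p = 0.0419). Sap30l, a component of a histone deacetylase complex, had 20.7 to 42.1 TPM in CAC and 16.2 to 20.2 TPM in Con, with no overlap (0.71 ± 0.15, adjusted p = 0.0243). Snrpe, a core protein of the spliceosome, had 22.8 to 31.5 TPM in CAC and 16.8 to 22.7 TPM in Con (0.58 ± 0.14, adjusted p = 0.0419). Nudt6, which overlaps Fgf2 on the other strand and is uncertain where counting ignored strand, differed by 0.61 ± 0.16 (adjusted p = 0.0477). Zfos1, with 0.71 ± 0.17 and adjusted p = 0.0374, and AW011738, with 0.60 ± 0.13 and adjusted p = 0.0247, completed the 10 with Ndufb4, Malat1 and Snhg12.

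Single genes of vessels fell in CAC. Apln, the gene of apelin, had 10.6, 8.40, 11.4, 8.82 and 16.8 TPM in CAC, against 20.2, 20.9, 13.8, 19.4 and 19.4 TPM in Con, a difference of -0.75 ± 0.16 (adjusted p = 0.0280). CAC replicate 5 and Con replicate 3 overlapped, and the other 8 libraries were apart. Kdr had 5.38, 3.79, 5.59, 4.23 and 9.41 TPM in CAC, against 11.5, 9.87, 8.66, 9.56 and 7.01 TPM in Con (-0.72 ± 0.18, adjusted p = 0.0427). Alpl, the tissue-nonspecific alkaline phosphatase carried by arterial endothelium of the brain, had 2.58, 1.89, 2.96, 2.89 and 7.32 TPM in CAC, against 6.96, 8.09, 5.84, 6.74 and 6.09 TPM in Con (-0.97 ± 0.23, adjusted p = 0.0406). For Kdr and Alpl again CAC replicate 5 alone lay within the Con range. Without a library the difference was -0.90 to -0.60 for Kdr and -1.24 to -0.81 for Alpl. Each passed in 3 of those 10 fits, and neither passed with the choroid plexus covariate or in the 10 libraries alone.

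The lists around these genes held few calls. Among all tested genes 0.487% rose, 0.314% fell and 9.07% were lower at an unadjusted p under 0.05. Of 18 tested genes of VEGF, apelin and hypoxia responses 0 rose and 2 fell (Apln and Kdr), with a median of -0.10. Of 9 tested arterial endothelial genes 1 fell (Alpl), 4 were lower at an unadjusted p under 0.05, and the median was -0.26. Of 12 brain endothelial genes 1 rose and 0 fell, with a median of -0.02. That gene was Ly6c1, a surface antigen of brain endothelium, with 47.2, 78.1, 50.8, 85.1 and 47.9 TPM in CAC and 35.5, 42.3, 43.0, 40.9 and 49.1 TPM in Con (0.51 ± 0.13, adjusted p = 0.0433). Library means of the brain endothelial list were 4.71 to 4.94 in CAC and 4.77 to 4.92 in Con.

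Several secreted factors and membrane proteins fell as well. Wls, the carrier that brings Wnt proteins to the cell surface, had 15.7, 13.4, 15.2, 14.8 and 22.0 TPM in CAC, against 24.4, 23.0, 20.8, 28.2 and 26.4 TPM in Con (-0.60 ± 0.13, adjusted p = 0.0247). Emp2, a tetraspan membrane protein, had 21.2, 20.6, 25.0, 19.1 and 32.0 TPM in CAC, against 39.4, 38.8, 32.5, 30.7 and 30.7 TPM in Con (-0.55 ± 0.13, adjusted p = 0.0347). CAC replicate 5 again was the CAC library within the Con range. Ptn, the growth factor pleiotrophin, had 187, 125, 189, 125 and 224 TPM in CAC, against 217, 233, 199, 221 and 227 TPM in Con (-0.40 ± 0.10, adjusted p = 0.0447). Edn3, the peptide endothelin 3, had 1.32 to 5.48 TPM in CAC and 5.00 to 9.27 TPM in Con (-0.81 ± 0.20, adjusted p = 0.0427).

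Mycbpap, named for binding a partner of the Myc protein, and Saxo2, of a family that stabilises ciliary microtubules, fell beside the low choroid plexus RNA of CAC. Mycbpap had the largest fall of a named gene, with 0.953, 0.883, 1.71, 1.90 and 2.35 TPM in CAC, against 4.02, 3.52, 3.68, 5.58 and 4.87 TPM in Con (-1.27 ± 0.33, adjusted p = 0.0447). In NCAC it had 1.66, 5.84, 6.87, 2.02 and 1.94 TPM, high in the 2 NCAC libraries with the most Ttr. With the choroid plexus list mean as a covariate its difference was -0.49 and did not pass. Every CAC library lay below every Con library in that list mean, so content and group cannot be told apart here. The part of choroid plexus content in the falls of Mycbpap and Saxo2 was not tested. Saxo2 had 0.925 to 1.71 TPM in CAC and 1.82 to 2.63 TPM in Con (-0.57 ± 0.14, adjusted p = 0.0419). Ependymal cilia genes, 9 tested with 0 passing, had a median of -0.51. Hist1h2be, a replication-dependent histone gene whose reads could be shared with near-identical copies, differed by -1.0 ± 0.24 (adjusted p = 0.0379), while 0 of the 8 tested histone genes of the list passed and their median was -0.12. Prss57, a serine protease at 0.422 to 0.972 TPM in CAC and 0.856 to 1.31 TPM in Con, differed by -0.58 ± 0.15 (adjusted p = 0.0447).

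Cholesterol synthesis genes were lower by a small margin. Of 22 tested genes 0 rose and 2 fell, against 0.314% that fell among all tested genes. At an unadjusted p under 0.05, 10 were lower, against 9.07% of all tested genes. A negative difference was found in 21, and the median was -0.21. Idi1, the isopentenyl diphosphate isomerase, had 49.2, 43.2, 51.3, 35.9 and 57.6 TPM in CAC, against 67.7, 64.3, 57.6, 72.0 and 68.5 TPM in Con (-0.49 ± 0.12, adjusted p = 0.0419). Nsdhl, a sterol dehydrogenase, had 24.5, 18.8, 23.6, 17.0 and 26.0 TPM in CAC, against 30.2, 26.9, 28.2, 28 and 29.4 TPM in Con (-0.39 ± 0.09, adjusted p = 0.0419). CAC replicates 2 and 4 were the lowest libraries for both genes. These 2 libraries also had the lowest myelinating oligodendrocyte list means, 5.68 and 5.46, against 6.23 to 6.74 in the other CAC libraries and 6.31 to 6.62 in Con; the part of this in the sterol genes was not tested.

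Among stress genes, 2 chaperones fell, and cold-inducible and metallothionein genes had positive differences without passing. Of 14 heat shock genes 0 rose and 2 fell, 6 were lower and 2 higher at an unadjusted p under 0.05, and the median was -0.14. Hsph1, a large heat shock protein, had 108, 113, 131, 87.7 and 122 TPM in CAC, against 142, 149, 148, 148 and 148 TPM in Con, with no overlap (-0.40 ± 0.10, adjusted p = 0.0419). Hsp90aa1, the chaperone that holds steroid receptors ready for hormone, had 1053, 1080, 1138, 1057 and 1120 TPM in CAC, against 1358, 1151, 1254, 1292 and 1408 TPM in Con, also with no overlap (-0.24 ± 0.06, adjusted p = 0.0447). Of 18 genes of the unfolded protein and integrated stress responses 0 passed, and 7 were lower at an unadjusted p under 0.05. Among all tested genes 0.314% fell, and 9.07% were lower and 8.8% higher at that unadjusted p.

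Rbm3, an RNA-binding protein made in the cold, had 144, 169, 119, 174 and 103 TPM in CAC, against 97.6, 86.6, 93.7, 90.2 and 103 TPM in Con (0.56 ± 0.15, adjusted p = 0.0520). Cirbp, its relative, had 92.0 to 130 TPM in CAC and 64.4 to 86.4 TPM in Con (0.56 ± 0.17, adjusted p = 0.0742). Groups did not overlap for either gene, by a narrow margin for Rbm3, and neither passed. Rbm3 passed in 5 of the 13 other alternatives, among them median-of-ratios scaling and voom, and Cirbp in 0. Mt1, a metal-binding metallothionein, had 464, 701, 552, 841 and 319 TPM in CAC, against 224, 281, 377, 297 and 300 TPM in Con (0.90 ± 0.26, adjusted p = 0.0643), and Mt2 differed by 0.94 ± 0.25 (adjusted p = 0.0527). CAC replicate 5 lay within the Con range for Mt1.

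**Figure D3:**
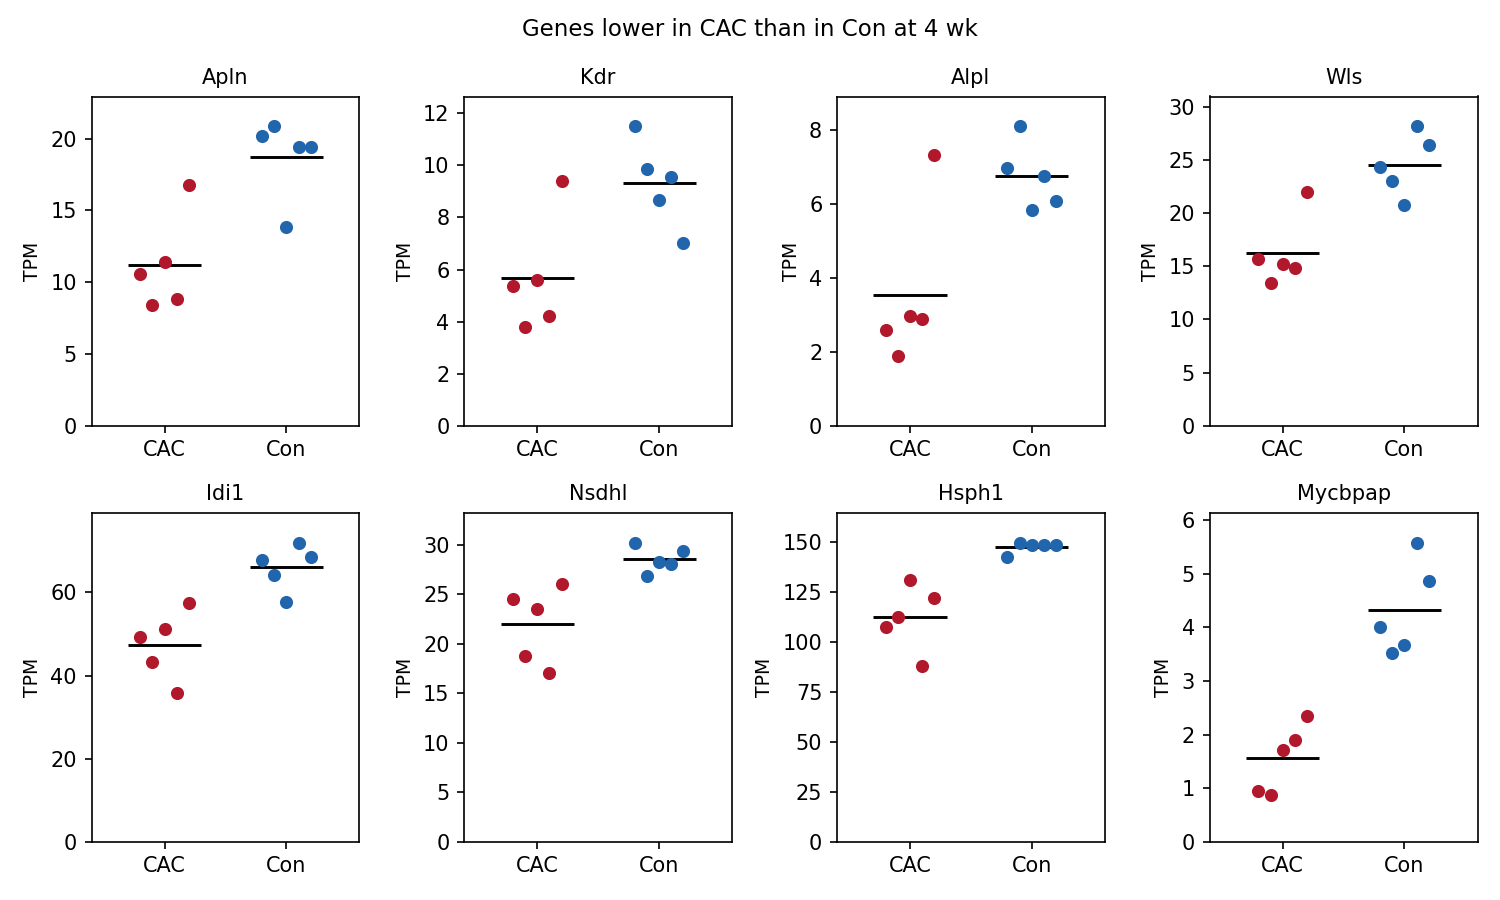
TPM of 8 genes that fell in CAC; points are libraries, replicates 1 to 5 from left to right, bars are group means (n = 5 each), and the axes start at 0. CAC replicate 5, the rightmost CAC point, is the highest CAC library in 7 of the panels and reaches 7.32 TPM for Alpl, inside the Con range of 5.84 to 8.09 TPM; for Hsph1, at 87.7 to 131 TPM in CAC and 142 to 149 TPM in Con, the groups stand apart.

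Lists of inflammation and stress hormone response showed few calls at 4 wk. Of 24 glucocorticoid receptor targets 0 passed and 21 had a positive difference. At an unadjusted p under 0.05, 4 were higher, against 8.8% of all tested genes. The median was 0.19, with 0.10 to 0.35 over the fits without a library and 0.08 without the striatum-rich libraries. List means were 5.38 and 5.56 in CAC replicates 2 and 4, above the Con range of 3.94 to 4.98. In the other CAC libraries they were 4.12 to 4.64, inside that range. Of 19 genes of the IL6 family and STAT3 response 1 rose, Bcl3, a co-regulator of NF-kappaB, at 0.261 to 1.4 TPM in CAC and 0.0410 to 0.523 TPM in Con. Of 10 complement genes 0 passed. C4b, a complement component made by astrocytes and microglia, had 56.3, 59.6, 53.5, 72.8 and 63.7 TPM in CAC, against 38.4, 35.5, 42.0, 41.4 and 37.0 TPM in Con, with no overlap (0.64 ± 0.23, adjusted p = 0.119). C4b passed in the fits of the 10 libraries alone, with and without the replicate block. Of 20 interferon response genes, 15 reactive astrocyte genes, 12 homeostatic microglia genes and 12 activated microglia genes 0 passed. At an unadjusted p under 0.05, 5 of the 15 reactive astrocyte genes were higher and 0 lower. Their median was -0.07, with 7 positive and 8 negative differences. Of the 19 IL6 and STAT3 genes 4 were higher and 1 lower at that p, against 8.8% and 9.07% of all tested genes. Of the 12 homeostatic microglia genes 6 were lower at an unadjusted p under 0.05, against 9.07% of all tested genes. The list was lowest in CAC replicate 4. Immediate early genes, glutamate receptor and postsynaptic genes, presynaptic genes, neuropeptides and circadian clock genes had 0 passing members and medians from -0.06 to 0.03.

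A panel of 27 genes that led the differences at 6 and 8 wk, chosen with those results known, was then read at 4 wk. Of the 27, 2 passed at 4 wk (Apln and Ptn), 16 at 6 wk and 26 at 8 wk. The sign at 4 wk was that at 8 wk in 24 of 27, against 53.5% of all tested genes. Of the 15608 tested genes 2256 passed at 8 wk, so these shares cover unlike sets of genes. Many panel members were high in the same CAC libraries, as given below, so the 24 are not independent. The panel was picked for its size at the later weeks, so its smaller size at 4 wk, in 26 of 27 against 8 wk, follows largely from that choice. The spread within CAC was wide. Etnppl encodes the phosphoethanolamine lyase of astrocytes. It had 5.42, 9.20, 1.71, 29.3 and 1.26 TPM in CAC, against 0.967, 1.23, 1.21, 4.06 and 2.94 TPM in Con (1.32 ± 0.53, adjusted p = 0.169). Its mean was 3.74 TPM in CAC and 1.18 TPM in Con at 2 wk, and 12.7 TPM in CAC and 0.693 TPM in Con at 8 wk. Gkn3, known in the brain as a marker of arterial endothelium, had 3.23, 2.70, 4.15, 0 and 8.54 TPM in CAC, against 4.92, 6.63, 4.74, 9.0 and 12.4 TPM in Con (-1.32 ± 0.39, adjusted p = 0.0662).

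Several members were high in particular CAC libraries, so group means describe them poorly. Scgb3a1, a secretoglobin, had 0.463, 1.51, 0.495, 9.73 and 0.167 TPM in CAC, against 0, 0, 0, 0 and 0.667 TPM in Con (1.5 ± 0.53, adjusted p = 0.124). Plin4, which coats lipid droplets, had 6.86, 39.7, 8.54, 65.4 and 2.15 TPM in CAC, against 1.70, 1.96, 10.1, 20.6 and 20.3 TPM in Con (0.84 ± 0.70, adjusted p = 0.552). Lrg1, an acute-phase glycoprotein, had 1.23, 4.61, 0.658, 5.29 and 0.667 TPM in CAC, against 0.520, 0.368, 0.439, 0.375 and 0.886 TPM in Con (1.22 ± 0.35, adjusted p = 0.0631). Of the 16 panel genes that were higher in CAC at 8 wk, CAC replicates 2 and 4 were the highest CAC libraries in 16, with replicate 4 on top in 13. Con replicates 4 and 5 were the highest Con libraries in 10 of the 16.

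Lcn2, the acute-phase iron carrier lipocalin 2, had 0.387, 4.98, 0.489, 2.57 and 0.153 TPM in CAC, against 0.574, 0.228, 0.226, 0.193 and 0.266 TPM in Con (1.00 ± 0.34, adjusted p = 0.112). Cdkn1a, the cell-cycle inhibitor p21, had 8.13, 20.7, 5.15, 40.3 and 6.49 TPM in CAC, against 5.73, 11.8, 6.58, 10.5 and 14.1 TPM in Con (0.35, adjusted p = 0.607). Sgk1, a kinase induced by glucocorticoids, had 46.5, 92.9, 62.0, 114 and 33.2 TPM in CAC, against 37.1, 51.7, 46.4, 95.8 and 104 TPM in Con (0.04, adjusted p = 0.949), and its sign turned in some fits without a library. For Sgk1 the high libraries of each group reached a like level. CAC replicate 4 was also the CAC library with the most choroid plexus RNA and the least erythroid and microglial RNA, and the part of this in the panel was not tested.

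**Figure D4:**
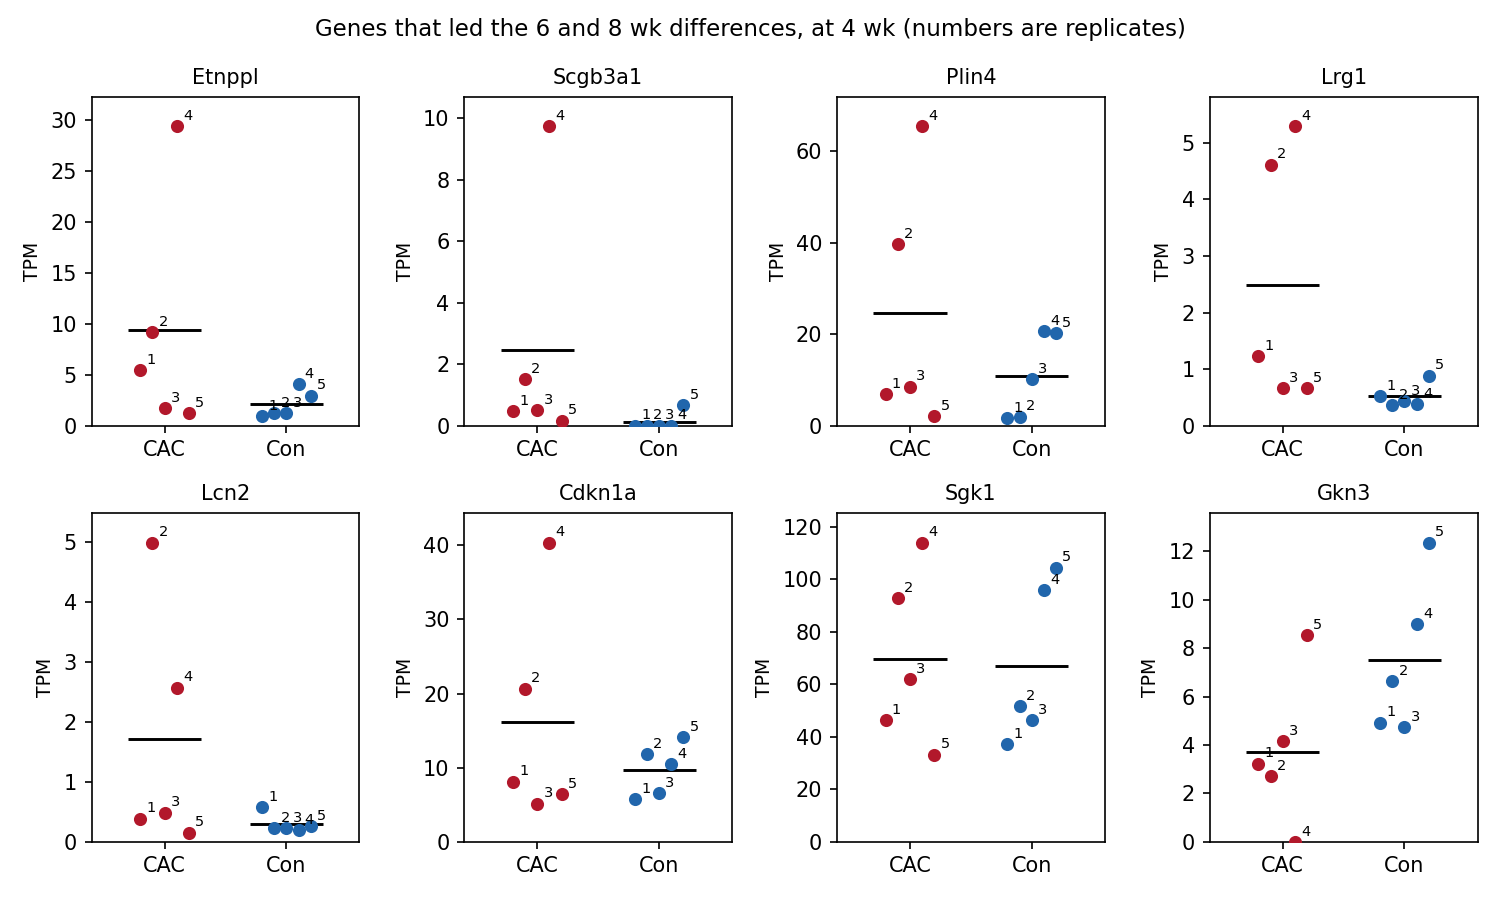
TPM at 4 wk of 8 genes from the panel that led at 6 and 8 wk; points are libraries numbered by replicate, bars are group means (n = 5 each), and the axes start at 0. CAC replicates 2 and 4 are the highest CAC libraries in every panel but Gkn3, where they are the lowest at 2.70 and 0 TPM, and Con replicates 4 and 5 are the highest Con libraries for Etnppl, Plin4, Sgk1 and Gkn3.

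Against tumours that do not cause cachexia, 2 genes passed (0.0128% of 15608, with 2185 at an unadjusted p under 0.05). Otof, the calcium sensor otoferlin, had 10.9, 8.11, 6.53, 11.1 and 8.32 TPM in CAC, 4.71, 4.95, 4.16, 4.34 and 3.72 TPM in NCAC, and 6.35, 6.43, 4.32, 7.13 and 5.54 TPM in Con. The CAC libraries lay above all NCAC libraries, and the difference from NCAC was 0.94 ± 0.18 (adjusted p = 0.0442). Bzrap1, a scaffold of presynaptic release sites, had 189, 178, 158, 200 and 160 TPM in CAC, 145, 131, 139, 134 and 133 TPM in NCAC, and 141, 162, 144, 145 and 151 TPM in Con. Its difference from NCAC was 0.37 ± 0.07 (adjusted p = 0.0442). The count was 22, 0, 38, 0 and 180 without CAC replicates 1 to 5, 0 without NCAC replicate 1, 2, 3 or 4 and 1 without NCAC replicate 5. Between NCAC and Con, 0 genes passed (0% of those tested) by limma on TPM and 0 by voom, with 1538 at an unadjusted p under 0.05, and 3 passed without Con replicate 3.

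The genes that passed between CAC and Con lay at different levels in NCAC. The comparisons below share libraries, so they are given side by side only. The ribosomal protein list had a median of 0.28 for CAC minus Con, 0.07 for CAC minus NCAC and 0.28 for NCAC minus Con. The nuclear oxidative phosphorylation list had 0.26, 0.04 and 0.23 in the same order. Rpl14 had 438, 457, 532, 419 and 408 TPM in NCAC, inside the CAC range in replicates 1 to 3 and at or near the top of the Con range in the others. For Apln and Wls the NCAC mean lay nearer to Con than to CAC. Apln had 17.7, 15.3, 15.8, 15.5 and 16.9 TPM in NCAC. Its CAC minus NCAC difference was -0.56 (adjusted p = 0.152) and its NCAC minus Con difference -0.19 (adjusted p = 0.696). Wls had 22.1, 23.6, 23.8, 21.0 and 22.8 TPM in NCAC, with -0.49 (adjusted p = 0.110) and -0.11 (adjusted p = 0.788) in the same order. None of these single differences from NCAC passed.

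Across the weeks, the 4 wk pattern of ribosomal and mitochondrial genes stood opposite to that at 2 wk. The CAC minus Con difference at 4 wk differed from that at 2 wk for 1058 genes (6.78%), 591 upward and 467 downward, or 819 and 223 of 1042 with median-of-ratios scaling. Of the 76 genes that rose at 4 wk, 24 had a positive difference at 2 wk, 56 at 6 wk and 45 at 8 wk. Of the 49 that fell, 15, 39 and 42 had a negative difference in those weeks. Over all tested genes the sign was that of 4 wk in 41.4% at 2 wk, 58.1% at 6 wk and 53.5% at 8 wk. Rpl14 differed between CAC and Con by -0.34 at 2 wk, 0.47 at 4 wk, 0.01 at 6 wk and -0.05 at 8 wk, and the change between 2 and 4 wk was 0.82 ± 0.13 (adjusted p = 0.000575). For Rps24 the change was 1.11 ± 0.19 (adjusted p = 0.00162), for Timm8b 1.13 ± 0.19 (adjusted p = 0.00162) and for Gas5 1.07 ± 0.19 (adjusted p = 0.00192). Acot13, a mitochondrial thioesterase, changed by 0.65 (adjusted p = 0.00179). These genes were picked for a small p in this change, so their passing follows from that choice. The median of the ribosomal protein list was -0.26, 0.28, 0.01 and -0.05 at 2, 4, 6 and 8 wk.

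Library traits differed as well. The slope on gene length, again of the deviation from the gene's mean, was 0.0292 to 0.156 in CAC and -0.0973 to 0.0383 in Con at 2 wk. This was the reverse order of the groups at 4 wk. With trends on length and GC content removed, 525 genes differed between 2 and 4 wk, and without the striatum-rich libraries 244 did. The count was 529, 376 and 1704 without CAC replicate 1, 2 or 5 of 2 wk, 408 without Con replicate 4 of 2 wk, and 672 and 623 without Con replicate 1 or 4 of 4 wk. For the vessel genes Apln and Kdr the sign at 4 wk was also that at 6 and 8 wk. Apln differed between CAC and Con by 0.21, -0.75, -0.71 and -0.82 at 2, 4, 6 and 8 wk, with a change between 2 and 4 wk of -0.95 (adjusted p = 0.0123). Kdr had 0.09, -0.72, -0.53 and -0.63 at these times.

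Between 4 and 6 wk the CAC minus Con difference changed for 0 genes (0%) by limma on TPM and 0 by voom, with 1560 at an unadjusted p under 0.05. The smallest p-values belonged to Rps2-ps6, a pseudogene, at -1.01, to Gas5 at -0.78, to Fap, a protease of fibroblasts, at 1.97, to Mex3a, an RNA-binding protein, at -0.63, and to C1qtnf5 at -2.88, each with an adjusted p of 0.248. C1qtnf5, a secreted protein of the C1q family, had 10.3, 7.34, 10.2, 6.17 and 12.5 TPM in CAC, against 2.02, 1.75, 3.48, 1.60 and 2.64 TPM in Con at 4 wk (1.81 ± 0.50, adjusted p = 0.0563). In NCAC it had 7.94, 3.07, 3.55, 11.2 and 2.27 TPM, highest in the 2 libraries with the least Ttr. With the choroid plexus list mean as a covariate its 4 wk difference was 0.69. Fap had 0.147 to 0.667 TPM in CAC and 1.33 to 2.29 TPM in Con at 4 wk, a difference of -1.24 that was -0.39 with that covariate. Both C1qtnf5 and Fap passed at 4 wk in the 10 libraries alone. The part of choroid plexus content in their differences was not tested.

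Between 4 and 8 wk 2 genes changed (0.0128%, with 3256 at an unadjusted p under 0.05): Lsm2, of the RNA-decay and splicing Lsm complex, by -0.67 ± 0.12, and Pcdhga6, a clustered protocadherin, by 1.08 ± 0.20, each with an adjusted p of 0.0117. Lsm2 had 3.74 to 4.70 TPM in CAC and 2.91 to 3.41 TPM in Con at 4 wk (0.35, adjusted p = 0.0423) and differed by -0.31 at 8 wk. Pcdhga6 differed by -0.44 at 4 wk (adjusted p = 0.102) and by 0.64 at 8 wk. The count was 468 without Con replicate 2 and 235 without Con replicate 3 of 4 wk, and 5, 1, 115 and 6 without CAC replicate 1, 2, 4 or 5 of 4 wk. It was 1 without Con replicate 4 of 4 wk, 20 without CAC replicate 5 of 8 wk, 4 without Con replicate 2 or 5 of 8 wk, and 0 without Con replicate 3 of 8 wk. Gng11, a G protein subunit, at -1.02, Mob4, a phosphatase complex subunit, at 0.35, and Pcdhac2, another protocadherin, at 0.92, came next and did not pass.

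**Figure D5:**
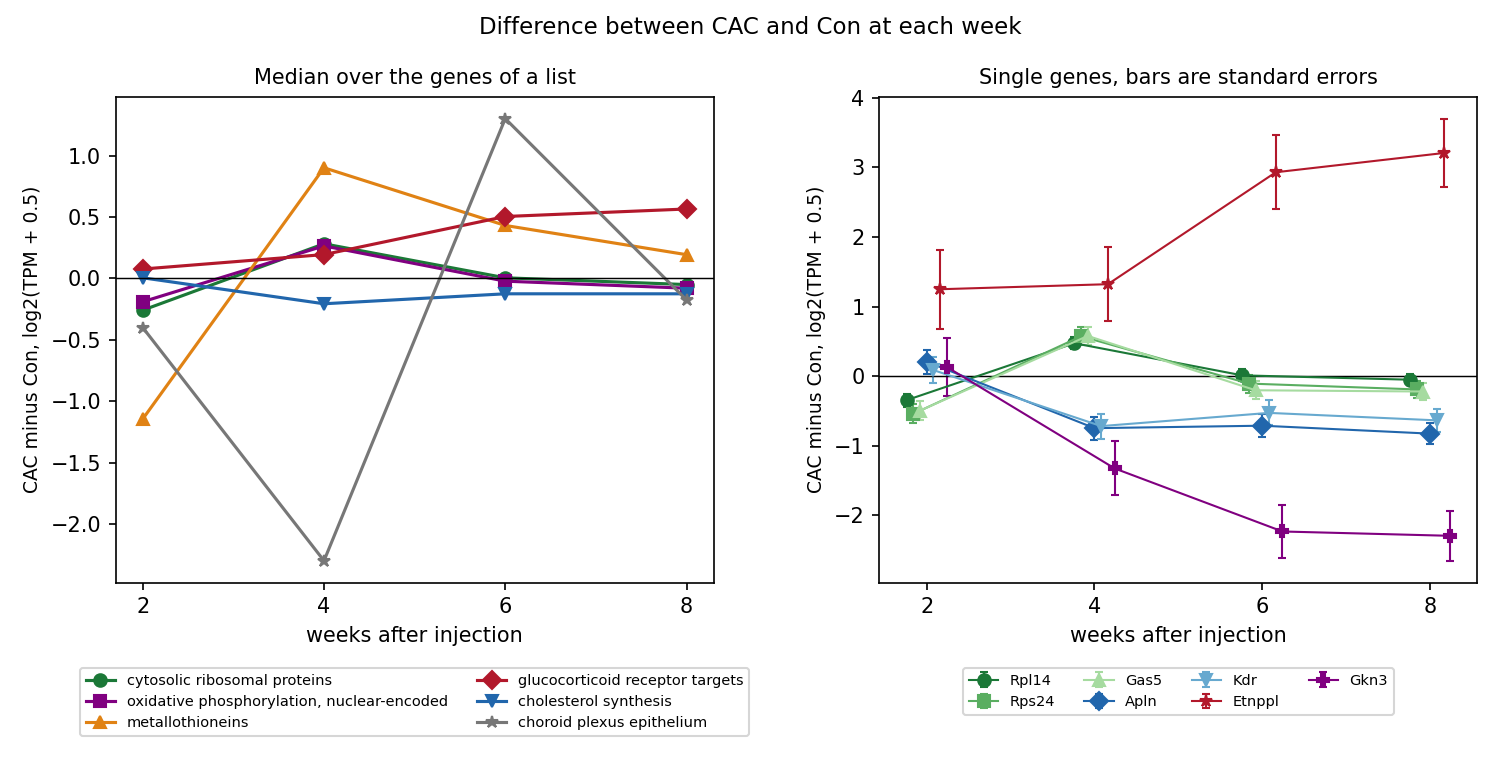
CAC minus Con on the log2(TPM + 0.5) scale against weeks after injection, as the median over the genes of 6 lists (left) and for 7 genes with standard errors (right, points set apart sideways for legibility). The ribosomal protein list is at -0.26, 0.28, 0.01 and -0.05 and the choroid plexus list at -0.40, -2.30, 1.30 and -0.17 at 2, 4, 6 and 8 wk, while Apln stays between -0.71 and -0.82 from 4 wk on.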

How the data were processed

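Hippocampal RNA was sequenced. The table the authors deposited holds TPM for 47643 gene symbols in 60 libraries. Per the labels' protocols, Trizol was used for RNA and a stranded TruSeq mRNA kit for libraries, run on an Illumina NovaSeq instrument; the protocol text also mentions another tumour line, of no group here. The build was mm10, per the submitters' processing notes. Which aligner, counter and annotation were used, and whether strand was counted, is not given in the sources used here. Since TPM is relative to gene length and library total, very abundant genes can shift the rest.

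Deposited TPM values were whole multiples of a step per gene and library, and whole reads were recovered within 0.02 of a read for all 24227 genes above 0 (100.00%), at 32388197 to 42047145 reads per library. Gene models (GENCODE M21, GRCm38) gave gene positions, length and GC content.

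Genes with at least 1 TPM in at least 4 libraries were tested (15608) by limma 3.58.1 (R 4.3.3), fitting means of 12 groups over all 60 libraries to log2(TPM + 0.5) with an intensity trend. P-values were two-sided and adjusted by Benjamini-Hochberg over all tested genes, with a threshold of 0.05. That scale understates changes of low genes. The scripts were tested on simulated data. None of the 10 libraries compared was a duplicate of another of them, and the other libraries were not checked. Lists, members and the late panel were chosen with earlier results of these data known. Named genes were the 10 largest passing differences in each direction (leaving out predicted or clone names and means under 1 TPM in the higher group), up to 4 members with the smallest p per list, the late panel, 5 genes per comparison between weeks, and 6 tissue markers; Rps24, Rpl35a, Gas5, Timm8b and C4b are described more fully and Rpl35a and C4b were chosen after their values were seen. Alternatives were other pseudocounts (0.1 and 1), filters, scalings, sample sets and covariates, a replicate block, and leaving out each library. Added after seeing the data were removal of GC and length trends (splines with 5 degrees of freedom, for 15062 genes with a known value, 96.5%), a fit without the 4 libraries with a striatal list mean over 4, and limma's voom on recovered reads. Replicate numbers were not taken to pair CAC with Con libraries in the main fit.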

Additional observations from a re-analysis of the deposited data

Results flagged for a closer look

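In groups of 5 libraries, a library was set apart when its gap to the nearest other exceeded the critical share of the group's range; 15 of 270 groups looked at (5.56%) held such a library, and chance gives about 1 in 20. Tissue markers stood out in CAC replicate 4, with Ttr at 1554 TPM (others 167 to 288) and a choroid plexus list mean of 3.71 (others 1.56 to 2.15), and in Con replicate 2. There Drd1 was 77.4 TPM (others 4.15 to 5.18), Drd2 83.1 (2.38 to 4.21) and Adora2a 123 (1.58 to 3.8), with list means of 6.80 for striatum (2.61 to 2.90), 4.68 for neuropeptides and neurotrophins (4.14 to 4.19) and 1.97 for a T cell list (0.07 to 0.40). The last rests on the 3 tested genes of 7, Cd4, Lck and Trac; the defining genes Cd3d, Cd3e and Cd3g were at 0 in every Con library, and the list was also high, at 2.05, in CAC replicate 1, so it does not stand for T cells here. Single genes were Oxct1 in CAC replicate 4 at 229 TPM (others 299 to 328), Snrpe in CAC replicate 5 at 22.8 TPM (29.7 to 31.5), Apln in Con replicate 3 at 13.8 TPM (19.4 to 20.9), Hsph1 in Con replicate 1 at 142 TPM (148 to 149) and Lcn2 there at 0.574 TPM (0.193 to 0.266). In Con replicate 5, Scgb3a1 was 0.667 TPM (others 0) and Ch25h, a cholesterol hydroxylase, 1.48 TPM (0.442 to 0.601).

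The change of the CAC minus Con difference between 2 and 4 wk passed limma's test for 6.78% of all tested genes, among them those below. On the log2 scale it was 0.82 for Rpl14, 1.11 for Rps24, 0.97 for Rpl35a, 0.65 for Rpl11, 0.69 for Rps14, 0.93 for Rps2-ps6, 1.07 for Gas5, 0.83 for Snhg12 and 1.26 for Malat1. Among mitochondrial genes it was 1.31 for Ndufb4, 0.67 for Ndufb9, 0.50 for Cox4i1, 1.13 for Timm8b and 0.65 for Acot13. It was 2.04 for Mt1, 1.78 for Mt2, 0.75 for Ly6c1, 0.51 for Pfdn5, 1.42 for Spaca6, 1.52 for Pin4, 1.03 for Zfos1, 0.98 for Sap30l, 0.80 for Nudt6, 0.93 for AW011738 and 1.07 for Snrpe. Late panel and other members were Lrg1 at 1.71, Npy at 0.74 and C1qtnf5 at 2.65. Some of these genes, such as Mt1, Mt2, Acot13 and C1qtnf5, had not passed at 4 wk. Many genes of the report were picked for their difference at 4 wk or for a small p in this change. Their passing, upward or downward, thus follows largely from that choice.

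Downward changes between 2 and 4 wk were -0.95 for Apln, -0.80 for Kdr, -0.79 for Wls, -0.62 for Emp2, -0.49 for Ptn, -0.31 for Hsp90aa1, -0.39 for Oxct1, -0.30 for Hadhb, -0.96 for Pcdhga6, -1.04 for Pcdhac2 and -0.26 for Mob4. Between 4 and 8 wk the changes that passed were -0.67 for Lsm2 and 1.08 for Pcdhga6.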

How the results depend on the processing

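For CAC against Con at 4 wk (125 genes), the count was 37 in a fit of the 10 libraries alone (10 shared with the 125), 213 with median-of-ratios scaling, 40 with no filter, 37 with a choroid plexus covariate (26 shared), 253 with GC and length trends removed (100 shared) and 0 without the striatum-rich libraries. Leaving out 1 library gave 0 to 590. Same-numbered CAC and Con libraries deviated together with r of -0.01, -0.28, 0.19, 0.02 and -0.01. The largest r, 0.49, lay between CAC replicate 1 and Con replicate 2, both rich in striatum. Whether replicate numbers pair the samples cannot be told from these values, which tissue content can set. With the replicate block in the 10 libraries the count was 24 (1 shared). Under the other 6 alternatives it was 121 to 154. For CAC against NCAC (2) it was 6 with median-of-ratios scaling and 0 with no filter, a striatum covariate, no intensity trend or no striatum-rich libraries, and 0 to 180 without a library; for NCAC against Con (0), 0 to 3. The 4 against 2 wk count (1058) was 525 with GC and length trends removed, 244 without striatum-rich libraries and 376 to 1704 without a library. The 6 against 4 wk count (0) was 1 with GC and length trends removed, and 0 to 0 without a library. The 8 against 4 wk count (2) was 6 with a pseudocount of 0.1, 52 with median-of-ratios scaling, 4 with the choroid plexus covariate or trends removed, 7 without striatum-rich libraries, 67 by voom and 0 to 468 without a library. Single genes turned sign, none of which had passed: without striatum-rich libraries Plin4 to -0.028 and Sgk1 to -0.16; with GC and length trends removed Pdk4 to 0.022, Npy to -0.18 and Gng11 to -0.14; with the choroid plexus covariate Npy to -0.0013. Without a library the ranges were -0.17 to 0.27 for Sgk1, -0.27 to 0.11 for Pdk4, -0.079 to 0.17 for Gng11, -0.079 to 0.63 for Cdkn1a and -0.15 to 0.011 for Dcc. The causes were not tested. CAC and Con held 5 libraries each at 4 wk, and no alternative varied depth.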

Other observations

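Of the fixed fasting and fatty acid list, 0 of 16 tested genes passed, with a median of 0.01, so fuel use as a group showed no call. Outside it, 4 single metabolic genes that fell in CAC are given as values, chosen after these were seen. Oxct1, which lets tissues burn ketone bodies, had 310, 299, 300, 229 and 328 TPM in CAC, against 366, 337, 337, 373 and 378 TPM in Con, a log2 difference of -0.30 ± 0.07 (limma adjusted p = 0.0347). Hadhb, of mitochondrial fatty acid oxidation, had 38.7 ± 0.841 TPM in CAC and 45.9 ± 2.07 TPM in Con (SD, n = 5 each, log2 difference -0.24 ± 0.05, adjusted p = 0.0243). Groups did not overlap for either gene. Ldha, a lactate dehydrogenase subunit, had 188 to 266 TPM in CAC and 251 to 279 TPM in Con (-0.25 ± 0.06, adjusted p = 0.0447), and Idh1, the cytosolic isocitrate dehydrogenase, 50.1 to 63.9 TPM in CAC and 63.4 to 80.0 TPM in Con (-0.35 ± 0.09, adjusted p = 0.0419). Each of these 4 genes passed in 4 or 5 of the 10 fits without a library.

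Pfdn5, a subunit of the prefoldin chaperone that hands new actin and tubulin chains on for folding, had 243, 242, 246, 251 and 236 TPM in CAC, against 188, 199, 198, 175 and 188 TPM in Con (0.36 ± 0.06, adjusted p = 0.0109). It passed in 8 of the 10 fits without a library, the most of any gene. No gene passed without CAC replicate 4 or without Con replicate 4. In NCAC it had 204, 214, 231, 223 and 220 TPM, above every Con library and below every CAC library.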
